A study of Mus musculus with 8 samples.

Results

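Levels of 10 epithelial and mesenchymal genes were followed in single cells of 4T1 tumours. The 4T1 line derives from a mammary carcinoma of a Balb/c mouse. The 10 genes were chosen by name, out of 17580 gene identifiers measured, and each was matched by symbol to 1 Ensembl identifier. They comprise the keratins Krt8, Krt18, Krt7 and Krt14, the adhesion proteins Epcam and Cdh1, and the genes Vim, Sparc, Spp1 and Cd44. Tumours were collected from Balb/c mice 10 days after subcutaneous injection and dissociated for 1 hour in a protease of Bacillus licheniformis. In all, 4 dissociation conditions were compared: 37C with inhibitor, 37C without inhibitor, 4C with inhibitor and 4C without inhibitor. The inhibitor was actinomycin D, a blocker of transcription, at 2 nM per the protocol, and strain, injected cells, protease, red-cell lysis and removal of debris and dead cells were common to all conditions. Each condition was 1 suspension pooled from 6 tumour pieces of different mice and then divided into aliquots A and B, so a condition has 2 libraries but 1 suspension. The p-values below therefore measure only the spread between aliquots, except those with aliquots summed. The latter come from a fit of additive temperature and inhibitor effects to the 4 suspensions, without a replicate of any condition. Their spread is the departure from additive effects. Heated and unheated gentleMACS instruments served for 37C and 4C, so temperature and instrument cannot be told apart.

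Keratins of simple epithelia form filaments from a type II and a type I partner, and Krt8 with Krt18 is the pair of glandular cells, while Krt14 marks basal cells. Epcam and Cdh1 (E-cadherin) hold epithelial cells together. In an epithelial-mesenchymal transition, known from carcinomas, junction genes are repressed by factors such as Snai1, Zeb1 and Twist1, which can bind E-box motifs, and Vim, the filament protein of mesenchymal cells, is gained. Sparc and Spp1 (osteopontin) are secreted matrix proteins, and Cd44 is a receptor for hyaluronan that also binds osteopontin.

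On the build GRCm38, the annotation places Krt8 at chr15:101996698-102004482 on the minus strand and Krt18 at chr15:102028180-102032027 on the plus strand, 23697 bases apart. Krt7 lies on the same chromosome at chr15:101411043-101430313. Krt14 lies at chr11:100203162-100207548, Epcam at chr17:87635979-87651129 and Cdh1 at chr8:106603351-106670246. Vim lies at chr2:13573927-13582826, Cd44 at chr2:102811141-102901665, Sparc at chr11:55394500-55423183 and Spp1 at chr5:104435118-104441050. All are protein-coding genes, and a level here is the count over the whole gene.

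The stretches before the start of 3 genes are shown because they contrast a keratin that was detected in the tumour cells, an adhesion gene that was not, and the member that was called between temperatures. They are RefSeq promoter sequences of GRCm38.p6, plus strand, printed from the far end up to the base before the annotated gene or, for Spp1, before the RefSeq start a few bases upstream of it, and capitals mark the E-box CAGGTG or its reverse complement CACCTG.
Krt18, chr15:102027966-102028179: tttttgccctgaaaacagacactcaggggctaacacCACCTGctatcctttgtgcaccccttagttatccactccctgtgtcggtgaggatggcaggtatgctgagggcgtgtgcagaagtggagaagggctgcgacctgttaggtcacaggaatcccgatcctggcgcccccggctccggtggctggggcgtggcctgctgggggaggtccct
Epcam, chr17:87635729-87635978: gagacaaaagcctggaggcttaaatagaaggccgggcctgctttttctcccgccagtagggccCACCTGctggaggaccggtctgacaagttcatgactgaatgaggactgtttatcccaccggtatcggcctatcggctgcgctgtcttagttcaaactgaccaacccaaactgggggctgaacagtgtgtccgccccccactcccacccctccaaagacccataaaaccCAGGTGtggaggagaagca
Spp1, chr5:104434861-104435110: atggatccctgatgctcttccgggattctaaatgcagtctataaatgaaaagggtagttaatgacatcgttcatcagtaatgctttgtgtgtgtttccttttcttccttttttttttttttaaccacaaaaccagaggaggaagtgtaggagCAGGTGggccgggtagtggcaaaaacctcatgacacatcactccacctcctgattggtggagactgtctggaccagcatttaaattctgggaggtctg
The motif was searched on both strands in the 250 bases before each RefSeq start, and 17.2% of 32851 such windows held it. Epcam had 2 matches, Krt8, Krt18, Krt7 and 1 of the 2 starts of Spp1 had 1 each, and Vim, Sparc, Cd44 and Krt14 had 0. Cdh1 had no promoter sequence among them, so 9 of the 10 members were searched. Of the searched members not detected in tumour cells, Epcam had matches and Krt14 had none. A link of the motif to detection was not tested.

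Counts are molecules (UMIs) from a 3' kit, and CPM scales a count to the total UMIs of the cells summed. The deposited annotation names 654 cells: 325 tumour cells, 109 macrophages, 154 T cells and 66 NK cells. Tumour cells numbered 55 and 76 in the 37C libraries with inhibitor, 41 and 67 at 37C without inhibitor, 14 and 15 at 4C with inhibitor, and 24 and 33 at 4C without inhibitor. A library held 87385 to 150065 UMIs of tumour cells at 37C, but 14959 to 45375 at 4C, so the values at 4C rest on fewer molecules. Median UMIs per cell were 1359 in tumour cells, 1133 in macrophages, 503.5 in T cells and 599 in NK cells. At most 1 annotated barcode sequence was shared between any pair of libraries. The types were named by the authors from the genes of these same cells, so levels by type are given as a description, with no test.

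Tumour cells carried transcripts of the glandular keratin pair, and no UMI of Epcam or Cdh1. Krt18 had 1116 CPM in tumour cells, against 0 in macrophages, 24.7 in T cells and 19.3 in NK cells. A Krt18 UMI was found in 66.2% of tumour cells, against 0.0% of macrophages, 1.95% of T cells and 1.52% of NK cells. Krt8, its partner, had 414 CPM in tumour cells, against 13.5 in macrophages, 8.24 in T cells and 0 in NK cells, and its UMIs were found in 40.9% of tumour cells. Krt7, a further keratin of glandular and ductal epithelia, had 67.0 CPM in tumour cells (39 UMIs in 28 cells) and 1 UMI in all immune cells together. Tumour cells lay above each immune type in every library: the lowest tumour-cell library had 166 CPM of Krt8 and 599 CPM of Krt18, against highest immune values of 41.2 and 159 CPM. With every cell thinned to 200 UMIs, Krt18 was detected in 17.2% of tumour cells, 1.30% of T cells and 0.0% of macrophages and NK cells, so the order remained at equal depth.

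The other 3 epithelial members had 0 UMIs in tumour cells. For Epcam, Cdh1 and Krt14, 0 of 325 tumour cells with a UMI allows a share of up to 0.923%, and 0 in 582389 UMIs allows up to 5.15 CPM. These limits cover counting error only and concern cells with a UMI, not cells that express the gene. Epcam had 2 UMIs, both in 1 T cell. Cdh1 was detected outside the tumour cells: 9 UMIs lay in 5 of 109 macrophages. Of these UMIs, 5 lay in 4 cells at 37C with inhibitor and 4 in 1 cell at 4C without inhibitor. Krt14 had no UMI in any annotated cell. Among these genes the tumour-cell label thus goes with Krt8, Krt18 and Sparc, while Epcam and Cdh1, surface markers of epithelium, were not detected there.

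The mesenchymal members differed in how far they set tumour cells apart. Vim was found in all 325 tumour cells and had 8800 CPM there, against 2801 in macrophages, 2020 in T cells and 1082 in NK cells. The tumour-cell libraries spanned 7977 to 10897 CPM, above the highest macrophage (4222), T-cell (2598) and NK-cell (2613) library, and the ranges of the 3 immune types overlapped. Barcodes of at most 100 UMIs, which hold mostly free RNA, had 4040 CPM of Vim, above the pooled level of each immune type. Sparc had 1102 CPM in tumour cells, against 6.73 in macrophages, 0 in T cells and 38.6 in NK cells, and its UMIs were found in 68.9% of tumour cells and in 2 immune cells. The ranges over libraries were 722 to 1671 CPM in tumour cells and at most 183 CPM in any immune type.

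Spp1 and Cd44 were shared with immune cells. Spp1 had 2481 CPM in tumour cells, against 1374 in macrophages, 462 in T cells and 618 in NK cells. The tumour-cell range over libraries, 1788 to 5147 CPM, overlapped that of macrophages, 0 to 3178 CPM, and lay above that of T cells, 0 to 921 CPM, and of NK cells, 0 to 1742 CPM, the last by a narrow gap. These ranges include libraries with as few as 1 cell of an immune type. The low-count barcodes had 1655 CPM of Spp1, and all 3 immune types lay below that level. The 18 T cells with a Spp1 UMI had 0 UMIs of Krt8, Krt18 and Sparc and a median of 1094 UMIs, against 476.5 in the other T cells. Cd44 was highest in macrophages, with 297 CPM in tumour cells, against 1145 in macrophages, 552 in T cells and 212 in NK cells. Its ranges over libraries overlapped between all types, 127 to 413 CPM in tumour cells and 0 to 2002 CPM in macrophages, and low-count barcodes had 465 CPM.

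**Figure D1:**
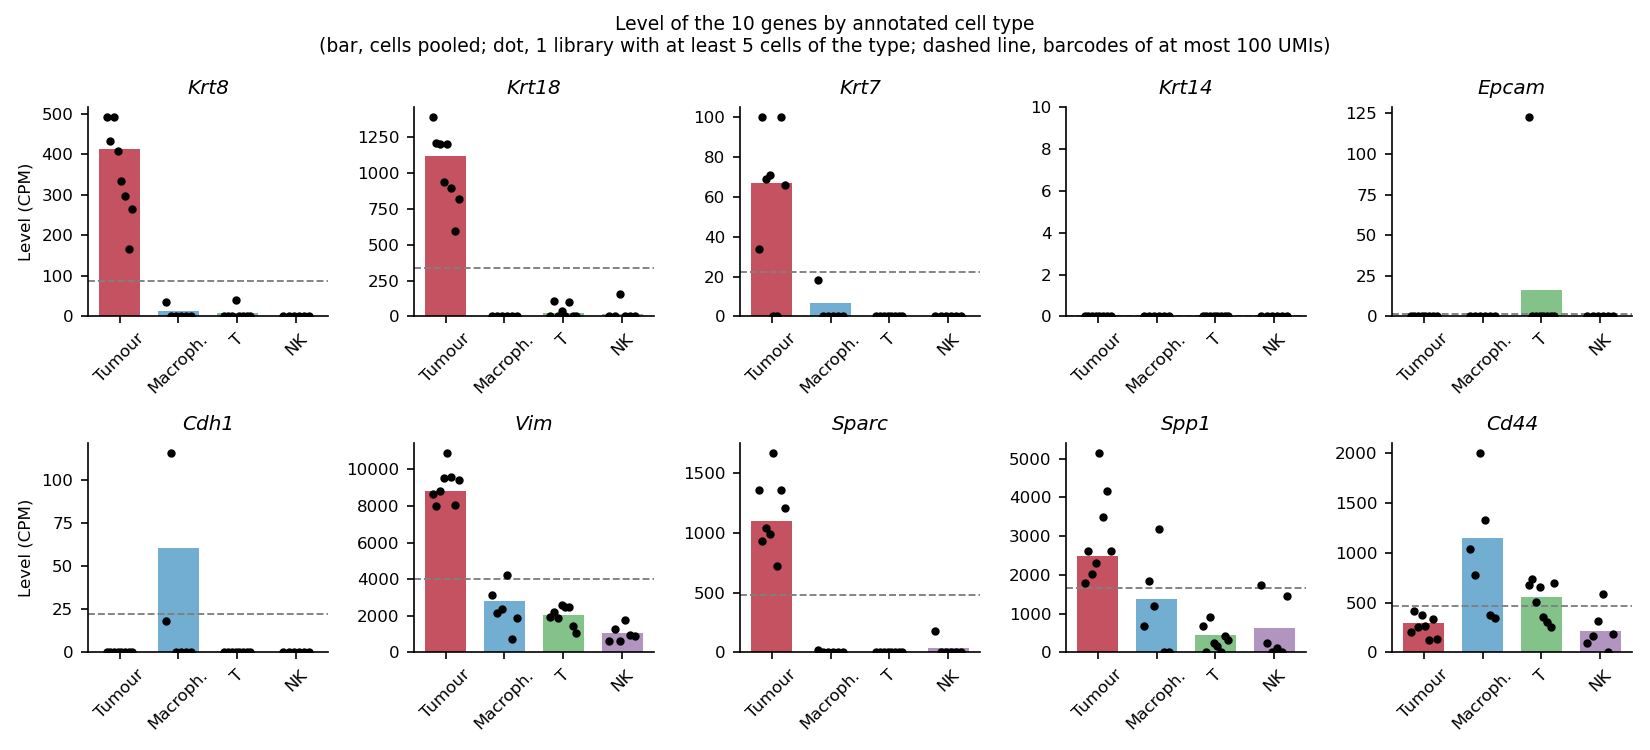
Level of each gene (CPM, y axis, linear) in tumour cells, macrophages, T cells and NK cells (x axis); bars are cells pooled over libraries, dots are single libraries with at least 5 cells of the type, and the dashed line is the level in barcodes of at most 100 UMIs. Krt8, Krt18 and Sparc stand in tumour cells and near 0 elsewhere, Vim is highest in tumour cells, Cd44 is highest in macrophages at 1145 CPM, and Krt14, Epcam and Cdh1 are at 0 in tumour cells.

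Further genes of both kinds were counted in the tumour cells. Of 41 other epithelial genes, 34 were measured, and 14 of these had 0 UMIs in tumour cells, among them Krt5, Krt17 and Krt6a (basal and stress keratins), Cldn3 and Cldn7 (tight-junction claudins), Dsp (desmoplakin) and Grhl2 (an epithelial transcription factor). The highest levels in that list were 2706 CPM for Wfdc2, a secreted whey acidic protein, 357 CPM for Spint2, a membrane protease inhibitor, and 276 CPM for Tjp1, the tight-junction scaffold ZO-1. Wfdc2 had 26.9 CPM in macrophages, 8.24 in T cells and 0 in NK cells. Of 36 other mesenchymal genes, 34 were measured and 6 had 0 UMIs in tumour cells: Cdh2 (N-cadherin), Snai2, Fstl1, Lox, Loxl2 and Prrx1. The highest levels were 13919 CPM for Lgals1 (galectin-1), 5374 CPM for S100a6 and 1118 CPM for Tagln2 (transgelin-2), and each of these was also found in every immune type, Tagln2 at 1104 to 1680 CPM. Among transcription factors of that list, Twist1 had 94.4 CPM in tumour cells, Zeb2 61.8, Foxc2 37.8, Snai1 18.9 and Zeb1 3.43 CPM, the last from 2 UMIs. Zeb2 had 242 CPM in macrophages and Zeb1 115 CPM in T cells, above their levels in tumour cells.

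Markers of other cells were counted beside these levels. Of 9 fibroblast markers, Col3a1, Dcn and Lum had 0 UMIs in tumour cells, and Pdgfra had 155 CPM. The 10 macrophage markers summed to 199 CPM in tumour cells, against 24405 CPM in macrophages, and 0 of the 10 were at 0. In tumour cells they summed to 271 and 420 CPM in the 37C libraries with inhibitor and to 42.5 to 88.2 CPM in the other 6 libraries. The 10 T-cell markers summed to 30.9 CPM in tumour cells, with Cd3d, Cd8b1 and Cd4 at 0, and the 7 NK-cell markers to 42.9 CPM, with Prf1 and Klre1 at 0.

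Epithelial and mesenchymal transcripts lay in the same cells. A UMI of Krt8, Krt18 or Krt7 was found in 241 of 325 tumour cells (74.2%), against 1.83% of macrophages, 2.60% of T cells and 1.52% of NK cells. Vim was found in every tumour cell, with or without a keratin UMI. Sparc was found in 179 of the 241 cells and in 45 of the 84 cells without a keratin UMI. UMIs of all of Krt8, Krt18, Vim, Sparc and Spp1 were found in 77 tumour cells. Cells with a keratin UMI had a median of 1654 UMIs, against 940 in the 84 cells without, so detection went with depth. At 500 UMIs per cell, 154 of 317 tumour cells kept a keratin UMI, and Vim averaged 4.62 UMIs per 500 in these and 3.98 in the 163 others. Sparc averaged 0.506 and 0.448, and Spp1 1.19 and 1.23, in the same cells.

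Within tumour cells the genes were weakly correlated. With library and total UMIs removed, Spearman's rho over 325 cells was 0.21 for Krt8 with Krt18 and 0.20 for Vim with Cd44, and these were the 2 of 21 pairs at or above 0.2. Among cells with Krt8, 83.5% also had Krt18, against 54.2% of cells without Krt8. At 500 UMIs per cell these shares were 50.9% and 37.5%, and rho for the pair was 0.07. The rho of Krt8 with Krt18 was 0.27 over the 239 cells at 37C and 0.04 over the 86 cells at 4C, and it lay between 0.08 and 0.25 when each library was left out. Krt18 with Vim gave 0.17, and 0.14 at 500 UMIs. The remaining pairs of a keratin with Vim, Sparc, Spp1 or Cd44 lay between -0.09 and 0.09. Cells of a library share its depth and free RNA, and no p is given for any of these values.

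**Figure D2:**
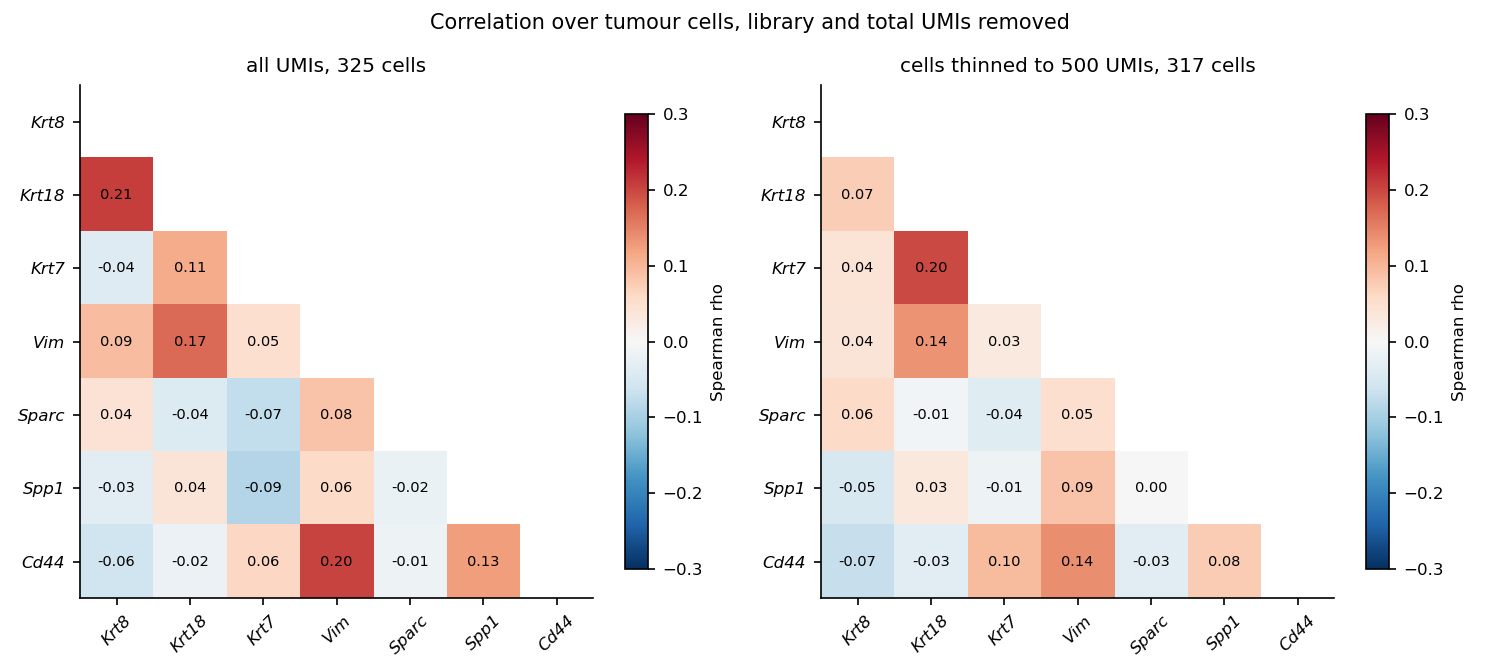
Spearman's rho between 7 genes over tumour cells after removing library and total UMIs, with all UMIs (left, 325 cells) and with cells thinned to 500 UMIs (right, 317 cells); the colour scale runs from -0.3 to 0.3. All values lie within that range. The highest with all UMIs is 0.21 for Krt8 with Krt18, which is 0.07 in thinned cells. The highest in thinned cells is 0.198 for Krt18 with Krt7, where 9 cells had a Krt7 UMI, and this pair has 0.11 with all UMIs.

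The genes also varied to different degrees between cells. At 500 UMIs per cell, the variance of Spp1 was 3.52 times its mean, against 1.94 for Vim, 1.29 for Krt18, 1.25 for Krt8, 1.05 for Cd44, 1.04 for Sparc and 0.975 for Krt7, where counting alone gives about 1. The 33 tumour cells with most Spp1 UMIs held 50.5% of all its UMIs in tumour cells, and 1 cell had 51. The corresponding share was 31.8% for Vim.

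The most similar genes were named among 2859 genes found in at least 10% of tumour cells. For Spp1 they were Ctsl (cathepsin L, rho 0.30), Slpi (a secreted leukocyte protease inhibitor, 0.27) and F5 (coagulation factor V, 0.26), where 95% of genes lay below 0.10. For Sparc they were Itm2b (0.29), Col4a1 (a chain of basement-membrane collagen, 0.26) and Tmem176b (0.23). Vim was nearest to S100a4 (0.23), Pcbp2 (0.21) and Sh3glb1 (0.20), and Cd44 to Sept11 (0.22), Rtn4 (0.21) and Itga6 (0.19). Krt18 was nearest to Lmna (lamin A/C, itself an intermediate filament, 0.22), Dazap1 (0.18) and Selenom (0.18), and Krt8 to Tuba1b (an alpha-tubulin, 0.19), Psmd9 (0.18) and Psma1 (0.17). Each rho is the highest of 2859, so it is given as a ranking.

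Dissociation at 37C went with a lower level of Spp1 in tumour cells. Spp1 had 1788 and 2606 CPM at 37C with inhibitor and 2037 and 2320 CPM at 37C without inhibitor, against 5147 and 3484 CPM at 4C with inhibitor and 4157 and 2623 CPM at 4C without inhibitor. All 4 libraries at 37C lay below all 4 at 4C, by a narrow margin between the nearest libraries. The means were 2187 ± 353 CPM at 37C and 3853 ± 1067 CPM at 4C (SD, n = 4 libraries each). The log2 fold change of 37C over 4C was -0.76 ± 0.16 (SE), and Spp1 was called lower by edgeR's quasi-likelihood test (adjusted p = 0.00235 over 1756 genes). It was the 1 member called among the 6 tested, where 1.42% of all genes were called. Krt7, Krt14, Epcam and Cdh1 were under the count filter, so 6 of 10 members were tested.

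The Spp1 difference rested in part on the A aliquots at 4C. Without the A library of 4C without inhibitor the log2 fold change was -0.40 (edgeR, adjusted p = 0.255), and without the A library of 4C with inhibitor it was -0.51 (adjusted p = 0.186). With aliquots summed to 4 suspensions it was -0.63 (adjusted p = 0.156). Within groups it was -0.90 ± 0.22 with inhibitor (edgeR, adjusted p = 0.0860) and -0.63 ± 0.22 without inhibitor (adjusted p = 0.150), neither called. At 500 UMIs per cell, tumour cells averaged 1.03 Spp1 UMIs at 37C and 1.77 at 4C, and a UMI was found in 46.0% and 53.8% of cells, against 72.0% and 67.4% before thinning. The 10 macrophage markers in tumour cells summed to 271 and 420 CPM at 37C with inhibitor and 57.2 and 70.8 CPM at 37C without inhibitor, against 42.5 to 66.8 CPM at 4C with inhibitor and 66.5 to 88.2 CPM at 4C without inhibitor. The 10 T-cell markers there summed to 8.85 to 26.7 CPM at 37C and 42.5 to 201 CPM at 4C. These T-cell values came from 18 UMIs over all tumour cells, too few per library to rank the temperatures. The 9 fibroblast markers summed to 106 to 240.3 CPM at 37C and 127 to 375 CPM at 4C, with overlap. The part of these markers in the Spp1 result was not tested. In tumour cells with no UMI of 9 immune genes the fold change was -0.66 (edgeR, adjusted p = 0.106). Low-count barcodes held 1410 to 1914 CPM of Spp1 at 37C and 1151 to 1979 CPM at 4C, with overlapping ranges.

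Slpi, near Spp1 in its pattern over cells, was also lower at 37C. It had 2567 and 3625 CPM at 37C with inhibitor and 3399 and 2019 CPM at 37C without inhibitor, against 8423 and 5353 CPM at 4C with inhibitor and 4523 and 4320 CPM at 4C without inhibitor. Its log2 fold change was -0.91 ± 0.15 (edgeR, adjusted p = 8.28e-05), and it was called whichever single library was left out, and with aliquots summed (-0.81, adjusted p = 0.0100), but not in tumour cells without immune UMIs (adjusted p = 0.0528). Ctsl (-0.03 ± 0.16) and F5 (-0.59 ± 0.33) were not called.

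The glandular keratins had higher values at 37C without passing the test. Krt8 had 491 and 433 CPM at 37C with inhibitor and 492 and 407 CPM at 37C without inhibitor, against 334 and 297 CPM at 4C with inhibitor and 166 and 264 CPM at 4C without inhibitor. The 4 libraries at 37C lay above the 4 at 4C. Of the 6 members, Krt8 was higher and Spp1 lower without overlap, as were 4.73% and 3.87% of all 1756 genes, 8.6% together. The log2 fold change of Krt8 was 0.79 ± 0.32 (edgeR, adjusted p = 0.215). Its counts at 4C were 5 to 12 UMIs per library. Krt8 UMIs were found in 46.4% of tumour cells at 37C and 25.6% at 4C, and in 19.0% and 10.0% at 500 UMIs per cell. Krt18 had 938 to 1389 CPM at 37C and 599 to 1203 CPM at 4C, which overlapped, with a log2 fold change of 0.46 ± 0.21 (edgeR, adjusted p = 0.320). At 500 UMIs per cell Krt18 was found in 40.5% of tumour cells at 37C and 37.5% at 4C. With inhibitor these shares were 40.0% at 37C and 46.4% of 28 cells at 4C, the reverse order, and without inhibitor 41.1% and 32.7%. The fold change of Krt8 was 0.60 ± 0.47 with inhibitor and 0.97 ± 0.43 without inhibitor, and that of Krt18 was 0.38 ± 0.31 with inhibitor and 0.54 ± 0.29 without inhibitor, none called. Krt7 had 33 UMIs at 37C and 6 at 4C, all 6 of them without inhibitor, and was not tested.

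Tuba1b, the gene nearest to Krt8 over cells, was called higher at 37C, with a log2 fold change of 1.50 ± 0.38 (edgeR, adjusted p = 0.0267). It had 457 and 620 CPM at 37C with inhibitor and 423 and 274 CPM at 37C without inhibitor, against 468 and 170 CPM at 4C with inhibitor and 99.8 and 66.1 CPM at 4C without inhibitor. The ranges overlapped through 1 library at 4C with inhibitor, and the call was lost without the B library of 37C with inhibitor (edgeR, adjusted p = 0.0726) but not with aliquots summed (1.53, adjusted p = 0.0436).

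Vim, Sparc and Cd44 did not pass the test in tumour cells. Vim had 7977 to 9544 CPM at 37C and 8048 to 10897 CPM at 4C, and its log2 fold change of -0.10 ± 0.11 had a 95% interval of -0.31 to 0.12. Sparc had 933 to 1364 CPM at 37C and 722 to 1671 CPM at 4C, with a fold change of -0.14 ± 0.21 and an interval of -0.55 to 0.27. The sign of both turned without a filter on low counts, a setting that moved the median gene by 0.439. Cd44 had 203 to 413 CPM at 37C and 127 to 333 CPM at 4C, with a fold change of 0.67 ± 0.39 (edgeR, adjusted p = 0.480).

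**Figure D3:**
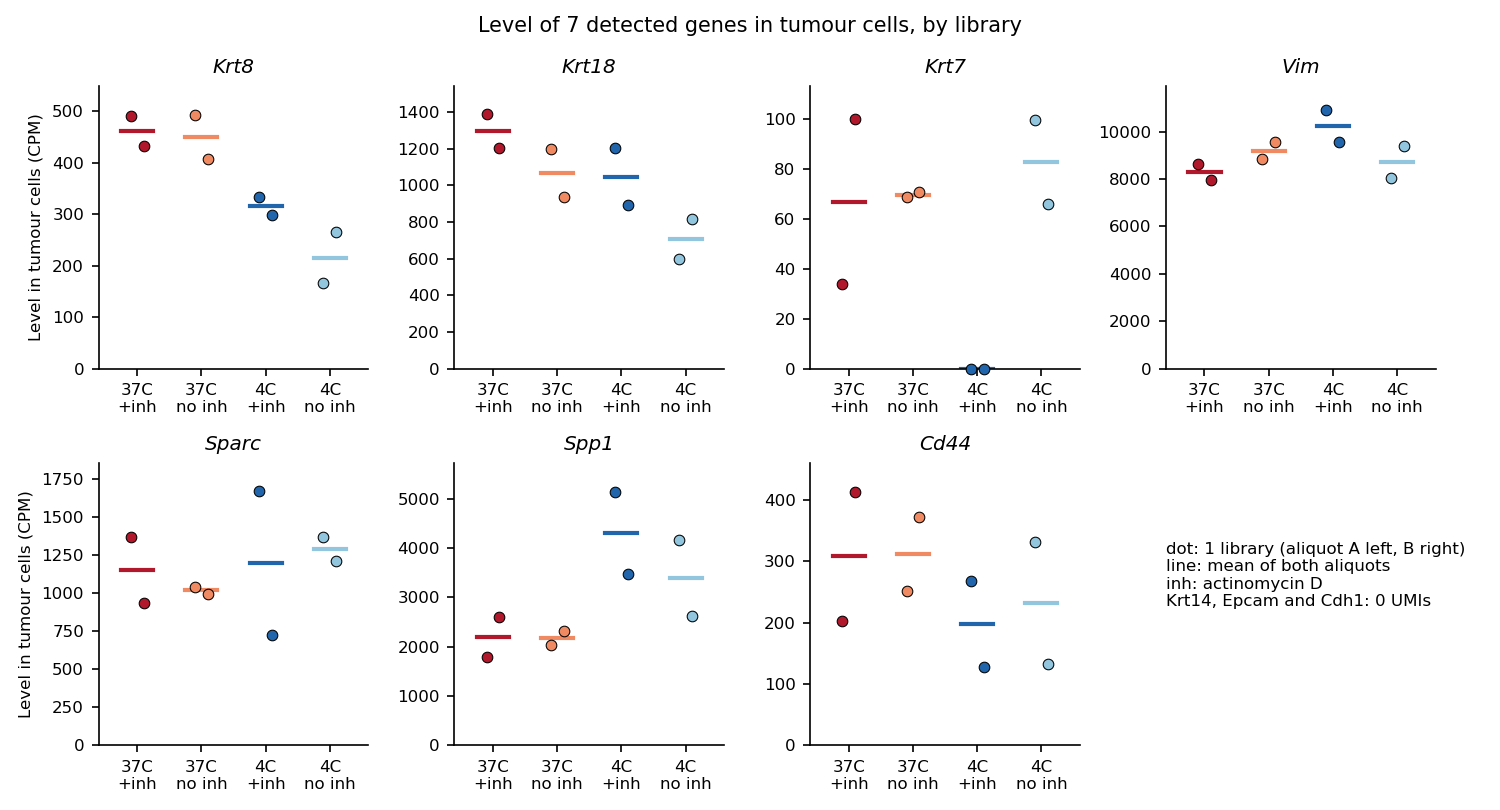
Level in tumour cells (CPM, y axis from 0) of the 7 members detected there, by group (x axis: 37C with inhibitor, 37C without, 4C with, 4C without); dots are libraries, aliquot A left and B right, and lines are the mean of both. All Spp1 dots at 37C, at most 2606 CPM, lie below those at 4C, all Krt8 dots at 37C, at least 407 CPM, lie above those at 4C, and the other genes overlap.

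Few genes of the wider lists were called. Of the other epithelial genes 6 were tested for temperature in tumour cells, 0 were higher and 1, Wfdc2, was lower at 37C, against 0.911% of all genes higher and 0.513% lower. Wfdc2 had 2211 and 2872 CPM at 37C with inhibitor and 2117 and 2576 CPM at 37C without inhibitor, against 4546 and 3356 CPM at 4C with inhibitor and 3492 and 3438 CPM at 4C without inhibitor. Its log2 fold change was -0.57 ± 0.15 (edgeR, adjusted p = 0.0267), and the call was lost without any 1 of 7 of the 8 libraries, all but the B library of 37C without inhibitor, and with aliquots summed (edgeR, adjusted p = 0.559). The median of the 6 was -0.39, against 0.02 over all 1756 genes. Of the other mesenchymal genes 12 were tested, 1, Lgals1, was higher at 37C and 0 were lower, and their median was 0.16. Lgals1 had 13021 to 16644 CPM at 37C and 9300 to 12969 CPM at 4C, with a fold change of 0.40 ± 0.10 (edgeR, adjusted p = 0.0268), lost without the B library of 37C with inhibitor (0.103) or of 37C without inhibitor (0.134) and with aliquots summed (0.208).

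Without inhibitor, 2.11% of all genes were called for temperature, and none of the 6 members was among them. Lgals1 (0.61 ± 0.14, adjusted p = 0.0128) and Tagln2 (1.14 ± 0.30, adjusted p = 0.0264) were the 2 mesenchymal genes called in edgeR, both higher at 37C, where 1.37% of all genes were higher and 0.74% lower. Tagln2 had 1362 and 1567 CPM at 37C without inhibitor, against 964 and 419 CPM at 4C without inhibitor. Both calls were lost without the B library of either group, with adjusted p of 0.136 to 0.627. With inhibitor, 0.0569% of genes, 1 gene, were called for temperature, and that gene was Slpi (-1.08 ± 0.21, edgeR, adjusted p = 0.00654).

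The inhibitor changed no member in tumour cells past the test. At 37C, 0.911% of all genes were called, 0.854% lower with inhibitor, and 0 of the 6 members, whose log2 fold changes of with over without inhibitor had 95% intervals within -0.74 to 0.71. Among the other mesenchymal genes Ccn1, a matrix protein induced by serum and stretch, was lower with inhibitor at 37C. It had 84.7 and 60.0 CPM at 37C with inhibitor, against 355 and 186 CPM at 37C without inhibitor, and a fold change of -1.90 ± 0.48 (edgeR, adjusted p = 0.0307). The call was lost without any of 3 of the 4 libraries at 37C and in tumour cells without immune UMIs (adjusted p = 0.415). At 4C and for the interaction of temperature and inhibitor, 0.0% of 1756 genes were called by edgeR and by DESeq2. An unadjusted p under 0.05 was reached by 90 and 121 of the 1756 genes in edgeR and by 40 and 55 in DESeq2. A share of 0.05 would reach it if no gene differed. The members' 95% intervals at 4C reached from -1.76 to 1.54 and those of the interaction from -1.67 to 1.88, limits set by Cd44 and Krt8. For these genes differences of several fold are left undetectable at this depth. At 4C the intervals were narrower for Vim (-0.19 to 0.44), Spp1 (-0.21 to 0.71), Sparc (-0.95 to 0.38) and Krt18 (-0.29 to 1.10). For the interaction they were -0.73 to 0.13, -0.87 to 0.35, -0.40 to 1.24 and -0.99 to 0.67 in that order.

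**Figure D4:**
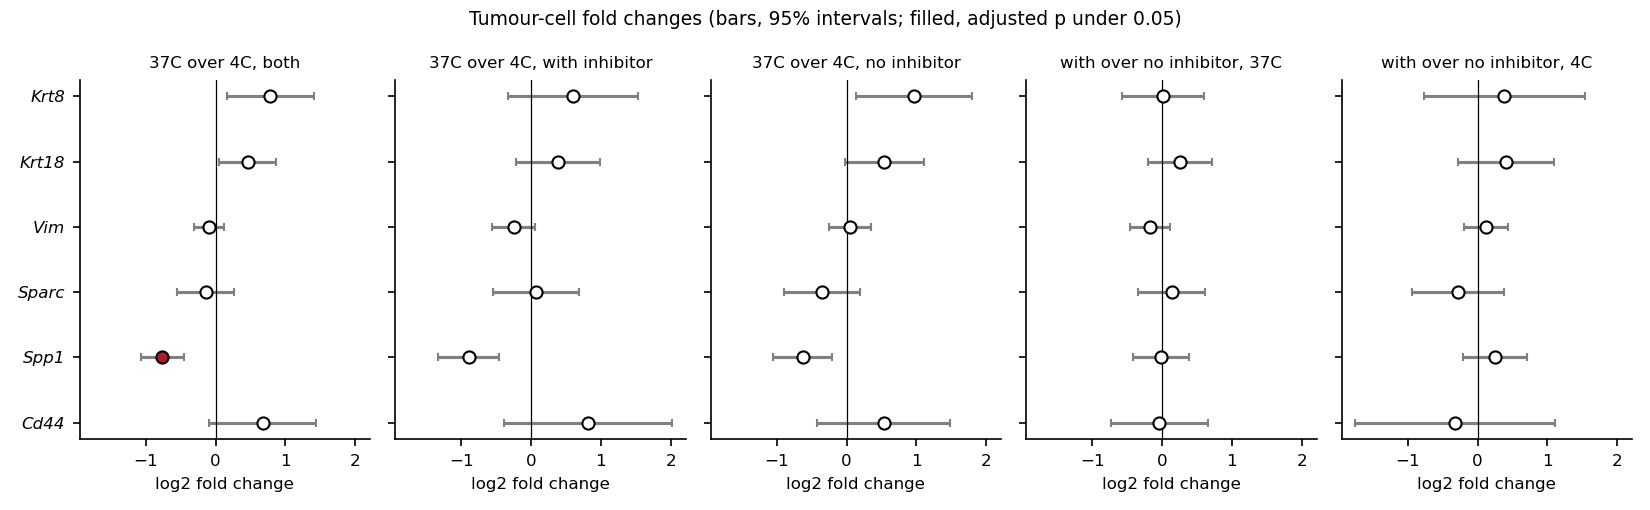
Log2 fold changes (x axis) of the 6 tested members (y axis) in tumour cells for 5 comparisons; bars are 95% intervals and a filled point has an adjusted p under 0.05. Spp1 in the comparison of 37C with 4C over both inhibitor states, at -0.76, is the filled point.

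Summed over all annotated cells, Cd44 was the 1 member called for temperature, among 6 tested, where 3.98% of 3391 genes were called, 2.74% higher and 1.24% lower. It had 465, 491, 594 and 535 CPM at 37C, against 258, 271, 284 and 261 CPM at 4C, with no overlap, and its log2 fold change was 1.00 ± 0.25 (edgeR, adjusted p = 0.0241). In these sums, more cells of a type and more RNA per cell cannot be told apart. Macrophages, which had the highest Cd44 level, were 92 of 433 annotated cells at 37C and 17 of 221 at 4C. In macrophages Cd44 had 780 to 2002 CPM at 37C and 0 to 737 CPM at 4C, where 4 UMIs were counted. Low-count barcodes had 486 to 581 CPM of Cd44 at 37C and 61.8 to 420 CPM at 4C, and the part of these shifts in the result was not tested. The call was lost without the A library of 37C without inhibitor (adjusted p = 0.0588) and by DESeq2 (adjusted p = 0.0971). After thinning, 5 members were tested and 0 were called, so Cd44 was either not called or not tested there. Krt8, with a fold change of 0.94 ± 0.30 (edgeR, adjusted p = 0.0786), Krt18 (0.57 ± 0.24), Spp1 (-0.35 ± 0.20), Vim (0.08 ± 0.13) and Sparc (-0.03 ± 0.25) were not called, though Krt8 (adjusted p = 0.0243) and Krt18 (0.0336) were called without the B library of 4C without inhibitor. Tumour cells were 239 of 433 cells at 37C and 86 of 221 at 4C.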

How the data were processed

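RNA was counted in single cells of 8 libraries prepared by the SureCell 3' chemistry (ddSEQ), per the labels' protocols. The deposited library tables hold raw counts, UMIs per Ensembl identifier and barcode, not normalised by the authors; 17580 identifiers occur, and 17520 received a symbol from the reference table. The deposited expression table of 6933 genes holds natural log values, made by the authors, whose exponentials less 1 matched the raw counts up to 1 factor per cell (tolerance 0.001); it lists 8 of the 10 genes and was used as an alternative. The deposited annotation gives each of 654 cells a library and a type, an entry of no numeric unit. The submitters' processing notes name the build GRCm38 and the tools Seurat, SAMtools, STAR 2.7.1a, UMI-tools and featureCounts 1.6.0. Sources used here do not say how doublets were treated, and no doublet caller was run.

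Counts were summed per library over tumour cells or all annotated cells. Genes were filtered by filterByExpr, scaled by TMM and fitted in 4 groups with edgeR 4.0.16 under R 4.3.3 (glmQLFit, glmQLFTest, two-sided). Genes with a Benjamini-Hochberg adjusted p under 0.05 over all genes tested were called. The 95% intervals are 1.96 SE. The script was tested on simulated data. Alternatives were DESeq2 1.42.0, RLE factors, no filter, the aliquot letter as a block, thinning, each library left out, aliquots summed, and tumour cells without immune UMIs or with at least 500 UMIs. With aliquots summed, the model held temperature and inhibitor as additive terms in place of the 4 groups. A floor is 3 counts. Correlations are Spearman's, after removing library means and the regression on log total UMIs from ranks (Python 3.11.15, SciPy 1.17.1, NumPy 2.4.6, pandas 2.3.3, matplotlib 3.10.9).

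The 10 genes and the lists were chosen with earlier results of these data known. All 10 are named, with, from the epithelial and mesenchymal lists, each gene called in tumour cells and the 3 of highest CPM, and, for each member in at least 25% of tumour cells, the 3 genes of highest rho among genes in at least 10% of them, leaving out ribosomal protein and predicted genes.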

Additional observations from a re-analysis of the deposited data

Results flagged for a closer look

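Barcodes outside the annotation carried the same epithelial and mesenchymal genes. The 105 unannotated barcodes of more than 5000 UMIs had 393.6 CPM of Krt8, 936 CPM of Krt18, 65.0 CPM of Krt7 and 1144 CPM of Sparc. Barcodes of at most 100 UMIs had 87.2, 335, 22.2 and 484 CPM of the same genes in that order, and the annotated tumour cells 414, 1116, 67.0 and 1102 CPM. A Krt18 UMI was found in 97.1% of the large barcodes, and Epcam, Cdh1 and Krt14 had 0 UMIs there. The 10 macrophage markers summed to 124 CPM and the 10 T-cell markers to 72.1 CPM in them. The comparisons above do not use these barcodes. Krt8, Krt18, Krt7 and Sparc were named because their level in the large barcodes stood well above the low-count level, so that order was set by the choice. Of the other members detected there, Vim had 7971 CPM, against 4040 in the low-count barcodes. Spp1 had 1761, against 1655, and Cd44 had 338, against 465.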

How the results depend on the processing

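In tumour cells the count of genes called for temperature was 25, and 7 by DESeq2's Wald test, 120 without a filter (where the median gene moved by 0.439 on the log2 scale), 9 after thinning and 12 to 63 with each library left out. With aliquots summed to 4 suspensions it was 17, which kept 11 of the 25. Without inhibitor it was 37, and 2 by DESeq2, 31 without a filter, 6 after thinning and 11 to 46 with each library left out, with 21 in tumour cells without immune UMIs. With inhibitor it was 1, and 0 by DESeq2, 23 without a filter, 4 after thinning and 0 to 19 with each library left out, with 0 in tumour cells without immune UMIs. For the inhibitor at 37C it was 16, and 1 by DESeq2, 0 after thinning, 8 in tumour cells without immune UMIs and 4 to 20 with each library left out. At 4C it was 0, and 0 to 1, and for the interaction 0, and 0 to 4, with each library left out. Over all annotated cells it was 135, and 60 by DESeq2, 293 without a filter, 31 after thinning, 137 with aliquots summed and 80 to 198 with each library left out. Of 21 pairs 2 had a rho of at least 0.2 in size, against 0 after thinning, 1 by plain Spearman and 1 to 3 with each library left out. The cause of these shifts was not tested.

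Without a filter the temperature fold changes of Vim (0.35) and Sparc (0.31) in tumour cells and of Sparc in all cells (0.27, and 0.047 with aliquots summed) turned sign. With each library left out, Vim ranged from -0.12 to 0.16 and Sparc from -0.27 to 0.28 in tumour cells, and Vim from -0.025 to 0.33 and Sparc from -0.19 to 0.44 in all cells. Krt8 (1.23, adjusted p = 0.0275) and Krt18 (0.90, adjusted p = 0.0114) were called by edgeR without a filter, and Spp1 was not (-0.30, adjusted p = 0.659). Spp1 kept its negative sign in all 16 alternatives, from -0.93 to -0.30. The aliquot letters were not used to pair the libraries. The correlation of A minus B between groups was -0.03 to 0.10 in tumour cells and -0.03 to 0.24 over all annotated cells, highest between the groups at 37C. With the letter as a replicate block, 28 genes were called for temperature in tumour cells and 156 over all annotated cells, and no member's call changed. Depth limits most the 4C libraries, where Krt8 had 5 to 12 UMIs and Cd44 3 to 10 in tumour cells.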

Other observations

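The 5 macrophages with a Cdh1 UMI were looked at after their values were seen. A UMI of the class II gene H2-Aa was found in 4 of them, against 36 of the 104 other macrophages, and a Cd74 UMI in 4, against 48 of 104. A Csf1r UMI was found in 3, against 58 of 104, and a C1qa UMI in 1, against 30 of 104. Cpa3, a mast-cell protease, was found in 0, against 7 of 104, and Fcer1a and Ms4a2 in 0, against 8 and 5. Other genes of mast cells and basophils went the other way, with Mcpt8 in 1, against 4 of 104, and Gata2 in 1, against 9. Ccl17 was found in 1, with 8 UMIs, against 0 of 104. Among members, a Spp1 UMI was found in 4, against 32 of 104, and a Krt18 UMI in 0, against 0 of 104. All 5 had a UMI of the 10 macrophage markers.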
